A study of Mus musculus with 12 samples.

Results

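The genes described here are the mouse members of the Eph, ephrin, Slit, Robo and netrin families, with the netrin receptors Dcc, Neo1 and Unc5. The rule that picks them reads gene symbols and no measured value, and it took 41 of the 26190 genes in the table: 9 EphA and 5 EphB receptors, 5 ephrin-A and 3 ephrin-B ligands, 3 Slits, 4 Robo receptors, 4 secreted netrins, 2 netrin-G proteins and 6 netrin receptors. Bulk RNA-seq was carried out on whole telencephalons of wild-type C57BL/6J embryos, with no treatment. The 4 groups were males and females at embryonic day (E) 11.5 and males and females at E14.5, with 3 embryos in each, so 6 libraries stood at each age. The study asked whether the sexes differ before the sex hormone surge, and the same libraries compare an age of progenitor expansion with an age of neuron production. At E11.5 the embryos came from 3 mothers, with 1 male and 1 female from each, whereas the 6 embryos at E14.5 came from 2 mothers. Each of the 4 groups also carried its own series of sequence IDs, so an effect of that series cannot be told apart from age or sex.

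Eph receptors are receptor tyrosine kinases that bind ephrins on neighbouring cells. Ephrin-As are held by a lipid anchor and ephrin-Bs span the membrane, and the contact usually makes cells or growth cones withdraw. Slits are secreted ligands that repel axons and migrating neurons through Robo receptors. Netrins attract through Dcc and repel through Unc5 receptors. In the telencephalon these families are known for sorting progenitors, for neuronal migration and for the first thalamocortical, corticofugal and commissural axons.

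Levels are given as FPKM (fragments scaled by transcript length and by library size, recomputed here from the counts with TMM scaling between libraries), which compares genes per length. Differences are log2 fold changes, E14.5 over E11.5 unless stated, from edgeR's quasi-likelihood test on the counts, with a standard error (SE) and a p adjusted by the Benjamini-Hochberg method over all 14454 genes tested. A gene was called when the adjusted p was under 0.05 and the log2 fold change was beyond 0.5 in either direction. In total 40 members passed the count minimum (a mean of 16 in at least 1 group). The exception was Ntn5, a minor netrin, at 0.0758 to 0.144 FPKM at E11.5 and 0.0178 to 0.110 FPKM at E14.5, which was not tested.

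The libraries held 17551763 to 28355361 counts. The first principal component (61.1% of the variance) separated the ages. The litter of E14.5 replicate 3 stood apart on it, at 120 and 105 against 67.2 to 89.0 for the other E14.5 libraries. Markers of neurons summed to 626 to 766 FPKM at E11.5 and 1670 to 2000 FPKM at E14.5, with 10 of 10 called higher, and those of cortical projection neurons to 81.1 to 91.0 and 450 to 627 FPKM (8 of 8 higher). Markers of radial glia went the other way as a sum, from 1660 to 1710 FPKM down to 1210 to 1390 FPKM, with 7 of 10 called lower and 2 higher. Those of the ventral telencephalon were present at both ages (150 to 184, then 262 to 346 FPKM), with 9 of 12 called higher and 1 lower. Other tissues moved as well. Choroid plexus markers went from 25.8 to 29.9 up to 171 to 514 FPKM, with 5 of 6 tested called higher and 1 lower. Erythroid markers went from 7390 to 12900 down to 1180 to 1890 FPKM, with 8 of 9 called lower. Those of mesenchyme and pericytes went from 220 to 276 down to 135 to 199 FPKM, with 7 of 10 called lower and 3 higher. Markers of the endothelium summed to 86.6 to 99.1 and then 72.9 to 94.7 FPKM, with 1 of 10 called higher and 1 lower. Those of the diencephalon were low but fell, from 16.9 to 19.9 to 11.2 to 16 FPKM (of 6 tested, 3 lower and 1 higher). Those of the eye were low but rose, from 4.43 to 5.91 to 7.92 to 9.93 FPKM (3 of 3 tested higher). The lens crystallin gene Cryaa was at 0 in every library. In bulk tissue, fewer cells of a type and less RNA per cell cannot be told apart, and the part of these shifts in the results below was not tested.

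Guidance genes moved in both directions between E11.5 and E14.5. Of the 40 tested, 17 rose and 12 fell, which is 42.5% and 30.0% of them, against 24.4% higher and 19.0% lower among all genes tested (43.3% in either direction). The median log2 change of the members was -0.05, beside -0.01 for all genes. In 33 of the 40 (82.5%) the E11.5 and E14.5 libraries did not overlap, against 55.5% of all genes. The rises were led by Unc5d (16.4-fold), Epha5 (10.1-fold), Ntng2 (9.09-fold), Epha8 (8.89-fold) and Slit1 (6.14-fold), and the falls by Epha1 (4.23-fold), Robo3 (2.81-fold), Epha10 (2.35-fold), Ephb4 (2.24-fold) and Efna5 (2.10-fold). Every class with more than 1 called member, apart from the netrin-G proteins, held genes that rose and genes that fell.

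**Figure D1:**
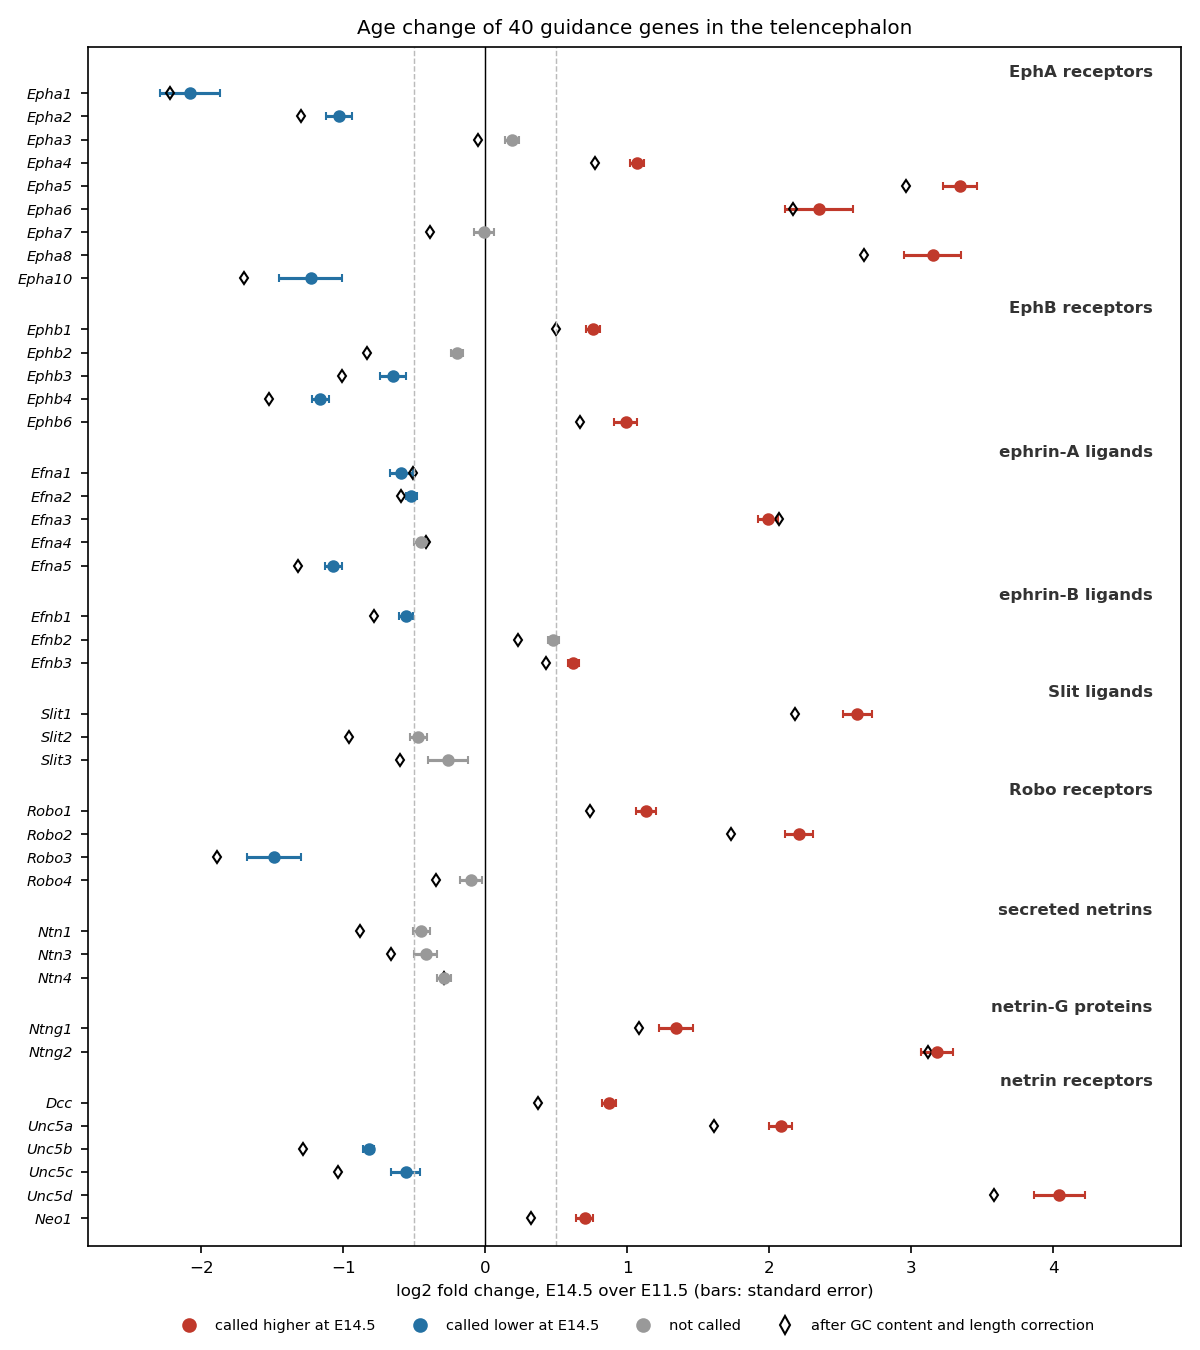
Log2 fold change of 40 guidance genes, E14.5 over E11.5 (x axis), by class, with points for the fitted change, bars for its standard error, dashed lines at the fold minimum of 0.5 and diamonds for the change after correction for transcript GC content and length. The 17 genes called higher reach 4.04 (Unc5d), the 12 called lower reach -2.08 (Epha1), and 36 of the 40 diamonds lie to the left of their points.

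The sequence upstream of the strongest movers is shown to give the base composition and the E-box content around their starts. Windows of 250 bases before the gene start were taken from RefSeq (build GRCm38.p6) for the genes with the largest rises and falls that reached 1 FPKM and had an entry; 36 of the 41 members matched, and Efnb3, Slit1, Ntn1, Dcc and Unc5d did not. They are Epha5 (chr5:84417383-84417632, minus strand), Ntng2 (chr2:29248100-29248349, minus strand), Robo3 (chr9:37433176-37433425, minus strand) and Ephb4 (chr5:137349859-137350108, plus strand). Capitals mark CAGATG, read on both strands (CATCTG on the other), an E-box to which proneural basic helix-loop-helix factors bind.
Epha5: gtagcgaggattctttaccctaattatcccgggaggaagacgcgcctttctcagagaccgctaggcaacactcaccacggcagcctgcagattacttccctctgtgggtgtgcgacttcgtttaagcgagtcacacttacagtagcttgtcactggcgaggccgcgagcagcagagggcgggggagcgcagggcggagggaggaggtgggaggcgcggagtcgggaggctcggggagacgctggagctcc
Ntng2: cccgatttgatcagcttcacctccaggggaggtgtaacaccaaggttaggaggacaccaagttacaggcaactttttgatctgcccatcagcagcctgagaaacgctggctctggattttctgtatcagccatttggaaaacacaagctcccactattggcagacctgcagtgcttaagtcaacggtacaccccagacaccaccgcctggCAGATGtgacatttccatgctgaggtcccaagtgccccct
Robo3: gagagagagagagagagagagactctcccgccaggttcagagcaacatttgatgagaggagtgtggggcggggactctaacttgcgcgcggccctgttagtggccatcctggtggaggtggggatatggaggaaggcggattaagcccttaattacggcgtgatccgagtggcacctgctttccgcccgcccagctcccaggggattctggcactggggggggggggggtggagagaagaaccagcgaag
Ephb4: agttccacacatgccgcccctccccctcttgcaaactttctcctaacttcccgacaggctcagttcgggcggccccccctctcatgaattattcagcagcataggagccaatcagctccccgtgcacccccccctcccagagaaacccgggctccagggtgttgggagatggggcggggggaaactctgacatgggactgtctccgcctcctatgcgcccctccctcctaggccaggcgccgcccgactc

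Ntng2 held 1 CAGATG, 40 bases before its start, and the windows of Epha5, Robo3 and Ephb4 held neither CAGATG nor CAGCTG, the E-box that reads the same on both strands. Across the members, 4 of 36 (11.1%) held CAGATG and 6 of 36 (16.7%) held CAGCTG, beside 16.3% and 14.7% of all 27025 genes with an entry. CAGATG was found in 3 of 13 members called higher and 1 of 12 called lower. The member windows were richer in GC than those of all genes, with medians of 65.1% and 52.4%.

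Among the EphA receptors, 4 rose, 3 fell and 2 were not called. Epha4, a receptor that binds ephrins of both classes and is used by corticospinal and thalamocortical axons, was already high, at 28.7 to 32.0 FPKM (median 30.6) at E11.5, and stood at 52.1 to 76.2 FPKM (median 66.0) at E14.5. The ages did not overlap, and the rise was 1.07 (SE 0.05, adjusted p = 3.23e-11). Epha5, which takes part in the graded mapping of axons, went from 2.34 to 4.27 FPKM (median 3.11) to 27.6 to 38.6 FPKM (median 33.1), a log2 rise of 3.34 (SE 0.12, adjusted p = 4.77e-10). Epha8 was barely present at E11.5, at 0.0624 to 0.199 FPKM or a mean of 15.7 counts, and reached 0.867 to 1.82 FPKM at E14.5. Its rise of 3.15 (SE 0.20, adjusted p = 2.82e-09) therefore ended at a low level. Epha6 likewise rose by 2.35 (SE 0.24, adjusted p = 3.57e-07) from 0.0448 to 0.144 FPKM to 0.328 to 0.844 FPKM. Its mean was 10.3 counts at E11.5 and 51.0 at E14.5, so it reached the count minimum only at E14.5.

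The EphA receptors that fell were all low. Epha2, an Eph receptor of epithelia, ran from 2.06 to 2.68 FPKM at E11.5 and from 0.941 to 1.55 FPKM at E14.5, without overlap, a log2 change of -1.03 (SE 0.09, adjusted p = 4.6e-08). Epha1 changed by -2.08 (SE 0.21, adjusted p = 3.24e-07) from 0.301 to 0.550 FPKM to 0.0602 to 0.149 FPKM, on a mean of only 7.38 counts at E14.5. Its exons share 236 bases with Zyx on the opposite strand, and whether counting used strand is not given. Epha10, whose kinase domain is inactive, changed by -1.23 (SE 0.22, adjusted p = 0.000122), and it was the only called member whose ages overlapped (0.154 to 0.327 and 0.0577 to 0.180 FPKM). Epha3 and Epha7, both known for graded expression in the developing cortex and thalamus, did not meet the call. Epha3 lay at 34.4 to 40.7 FPKM and then 35.5 to 51.2 FPKM (0.19, adjusted p = 0.00522), and Epha7 at 7.89 to 8.41 FPKM and then 6.44 to 11.3 FPKM (-0.01, adjusted p = 0.95).

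These shifts changed which EphA receptor dominated. Epha3 made up a median of 45.3% of the summed EphA level at E11.5 and 28.4% at E14.5, whereas Epha5 went from 3.77% to 21.6% and Epha4 from 36.6% to 42.6%. The summed EphA level was 79.2 to 86.5 FPKM at E11.5 and 125 to 181 FPKM at E14.5.

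Of the 5 EphB receptors, 2 rose and 2 fell. Ephb1, the receptor that steers uncrossed retinal axons, ranged from 9.82 to 12.5 FPKM (median 11.3) at E11.5 and from 16.8 to 20.7 FPKM (median 19.3) at E14.5, and rose by 0.76 (SE 0.05, adjusted p = 3.6e-09). Ephb6, which lacks kinase activity, rose by 0.99 (SE 0.08, adjusted p = 2.31e-08), from 3.69 to 5.34 FPKM (median 4.11) to 6.82 to 10.2 FPKM (median 8.57). Ephb4, best known as the receptor for ephrin-B2 on venous endothelium, showed the clearest fall of the class. It went from 17.1 to 20.6 FPKM (median 19.0) to 6.91 to 10.6 FPKM (median 8.25), a change of -1.16 (SE 0.06, adjusted p = 1.81e-10), while the endothelial marker list had 1 of 10 genes lower, 1 higher and a median change of -0.30. Without the fold minimum 7 of these 10 markers were lower, and after the GC content and length correction described below 5 were called lower with a median of -0.57. The part of endothelial cells in the Ephb4 result was not tested. Ephb3 changed by -0.65 (SE 0.09, adjusted p = 7.77e-06), from 6.54 to 7.64 FPKM to 3.18 to 6.08 FPKM. Ephb2, the most abundant of the class, was not called, at 23.4 to 28.8 and 20 to 25.8 FPKM (-0.20, adjusted p = 7.63e-05). The summed EphB level overlapped between the ages (62.5 to 74.2 and 55.7 to 71.7 FPKM), while Ephb4 went from a median of 27.8% to 13.7% of it and Ephb1 from 16.8% to 29.6%.

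**Figure D2:**
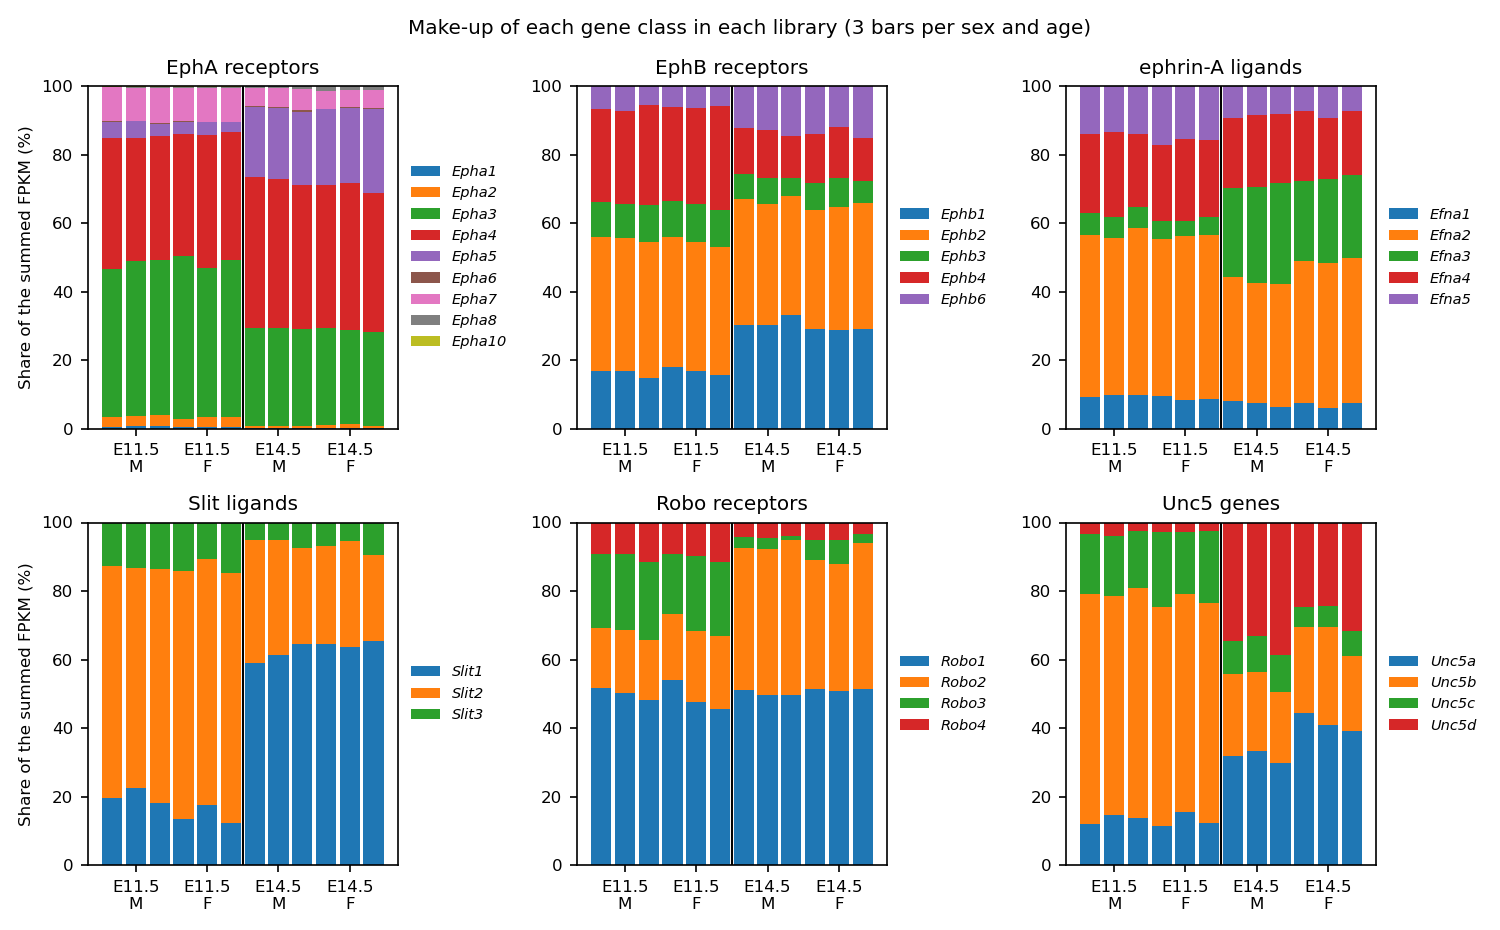
Share of each gene in the summed FPKM of its class (y axis, percent), with 1 bar per library, 3 per sex and age (M male, F female), and a line between the ages. The median share of Slit1 goes from 17.9% at E11.5 to 64.1% at E14.5, that of Robo3 from 21.8% to 3.18%, and that of Unc5d among the Unc5 genes from 2.78% to 32.5%.

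Of the 5 ephrin-A ligands, 3 fell, 1 rose and Efna4 was not called. Efna3 was recorded at 2.43 to 3.56 FPKM (median 3.18) at E11.5 and 10.5 to 13.1 FPKM (median 12.4) at E14.5, well apart, and rose by 1.99 (SE 0.07, adjusted p = 4.86e-12). Efna5, a ligand with a known role in mapping thalamic axons onto cortical areas, went the opposite way, with 7.37 to 9.16 FPKM (median 8.14) at E11.5, 3.24 to 5.04 FPKM (median 3.86) at E14.5 and a change of -1.07 (SE 0.06, adjusted p = 7.41e-10). Efna1 (4.54 to 5.58, then 2.55 to 4.06 FPKM) changed by -0.59 (SE 0.08, adjusted p = 1.05e-05). Efna2, the most abundant ephrin-A, changed by -0.52 (SE 0.04, adjusted p = 8.42e-09), from 24.5 to 27.7 FPKM to 14.3 to 22.8 FPKM, close to the fold minimum. Its call was lost when the E11.5 litter of replicate 3 was left out (-0.48) and when counts were summed per mother (-0.46). Efna4 stood at 11.9 to 13.4 and 8.05 to 11.1 FPKM (-0.45, adjusted p = 1.97e-06). Efna3 made up 5.7% of the summed ephrin-A level at E11.5 (median) and 25.2% at E14.5.

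The ephrin-Bs were the most abundant ligands, and their sum, 152 to 170 FPKM at E11.5 and 148 to 201 FPKM at E14.5, overlapped between the ages while its parts moved against each other. Efnb1, an X-linked ephrin-B of progenitors, changed by -0.56 (SE 0.05, adjusted p = 9.9e-08), from 77.3 to 88.1 FPKM (median 85.4) to 41.1 to 76.1 FPKM (median 57.7), and was just short of the call (-0.50) without the E14.5 litter of replicate 3. Efnb3, an ephrin-B of neurons and the midline, went from 29.3 to 37.2 FPKM (median 32.6) to 44.1 to 55.5 FPKM (median 49.3), a rise of 0.62 (SE 0.04, adjusted p = 1.69e-09). Efnb2 stayed under the fold minimum, at 44.7 to 48.4 FPKM and then 57.4 to 78.4 FPKM (0.48, adjusted p = 3.51e-08), although its ages did not overlap either. The median share of Efnb1 in the class went from 51.5% to 32.4%.

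Among the Slits only Slit1 was called. It ran from 1.47 to 2.99 FPKM (median 2.29) at E11.5 and from 12.4 to 14.7 FPKM (median 13.3) at E14.5, and the rise was 2.62 (SE 0.10, adjusted p = 7.53e-11). Slit2 lay at 8.34 to 9.63 FPKM and then 5.18 to 7.68 FPKM (-0.47, adjusted p = 4.67e-06). Leaving out 1 library was enough to call it lower (-0.50 without E14.5 male replicate 1, -0.52 without E14.5 female replicate 2). Slit3 lay at 1.41 to 1.76 and 1.12 to 1.95 FPKM (-0.26, adjusted p = 0.0999). Slit2 thus gave a median of 70.0% of the summed Slit level at E11.5 and Slit1 64.1% at E14.5, and the sum was 12 to 13.4 FPKM and then 19.2 to 22.7 FPKM.

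Of the 4 Robo receptors, 2 rose and 1 fell. Robo2, with Robo1 the main Slit receptor of forebrain axons, rose by 2.21 (SE 0.10, adjusted p = 7.41e-10), from 4.74 to 5.95 FPKM (median 5.34) to 19.3 to 32.3 FPKM (median 25.0). Robo1 rose by 1.13 (SE 0.07, adjusted p = 6.02e-09), from 10.7 to 16.2 FPKM (median 13.7) to 26.2 to 35.3 FPKM (median 29.8). No E14.5 library of either gene came down to the highest E11.5 library. Robo3, a divergent member known for letting commissural axons cross the midline, went from 4.29 to 7.20 FPKM (median 6.23) to 0.989 to 3.70 FPKM (median 1.89), a change of -1.49 (SE 0.19, adjusted p = 2.15e-05). Robo4, the endothelial member, was not called, at 2.26 to 3.41 FPKM and then 2.10 to 2.78 FPKM (-0.10, adjusted p = 0.246). Robo1 held about the same share of the class at both ages (medians 49.1% and 50.9%), whereas Robo2 went from 18.9% to 42.2% and Robo3 from 21.8% to 3.18%.

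No secreted netrin was called. Ntn1, the long-range attractant for Dcc-bearing axons, was measured at 12.7 to 15.7 FPKM (median 14) at E11.5 and 9.15 to 12.5 FPKM (median 9.81) at E14.5. These did not overlap, but the change of -0.45 (adjusted p = 8.79e-06) stayed within the fold minimum. Ntn3 (2.41 to 3.29, then 1.77 to 2.62 FPKM, -0.42, adjusted p = 0.000119, with 89 exon bases shared with Tbc1d24) and Ntn4, a netrin of basement membranes (9.10 to 11.2, then 7.03 to 8.93 FPKM, -0.29, adjusted p = 0.000168), differed in the same direction. Both netrin-G proteins, lipid-anchored relatives that bind LRRC4-family partners rather than Dcc, rose. Ntng2 went from 1.09 to 1.57 FPKM (median 1.31) to 9.29 to 17.7 FPKM (median 11.8), a rise of 3.18 (SE 0.11, adjusted p = 7.91e-12). It shares 546 exon bases with 6530402F18Rik on the same strand, so reads there could belong to either gene. Ntng1 went from 0.292 to 0.431 FPKM to 0.836 to 1.17 FPKM, a rise of 1.34 (SE 0.12, adjusted p = 1.05e-07).

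All 6 netrin receptors were called, 4 higher and 2 lower. Unc5d, a receptor for netrin and for FLRT adhesion proteins that marks neurons on their way into the cortex, had the largest rise of all members, 4.04 (SE 0.18, adjusted p = 1.34e-09), from 0.306 to 0.527 FPKM (median 0.348) to 4.92 to 8.07 FPKM (median 5.96). Unc5a, a repulsive receptor of neurons, rose by 2.08 (SE 0.08, adjusted p = 1.44e-11), from 1.40 to 2.0 FPKM (median 1.74) to 5.68 to 9.88 FPKM (median 7.22). Dcc, the attractive receptor, went from 16.3 to 18.6 FPKM (median 18.2) to 26.0 to 35.9 FPKM (median 34.0), a rise of 0.87 (SE 0.05, adjusted p = 1.27e-09). Neo1, which also binds repulsive guidance molecules, rose by 0.70 (SE 0.06, adjusted p = 5.05e-08), from 21.6 to 24.0 FPKM to 30.6 to 44.4 FPKM. Unc5b, a receptor shared with blood vessels, fell by 0.82 on the log2 scale (SE 0.04, adjusted p = 1.12e-10), from 7.89 to 9.47 FPKM (median 8.41) to 4.05 to 5.75 FPKM (median 4.75). Unc5c, from 2.27 to 2.68 FPKM to 1.2 to 2.25 FPKM, fell by 0.56 (SE 0.10, adjusted p = 0.000221), and by only 0.26 when the E14.5 litter of replicates 1 and 2 was left out. Among the 4 Unc5 genes, Unc5b gave a median of 64.2% of the summed level at E11.5 and 23.6% at E14.5, while Unc5d went from 2.78% to 32.5% and Unc5a from 13% to 36.1%.

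**Figure D3:**
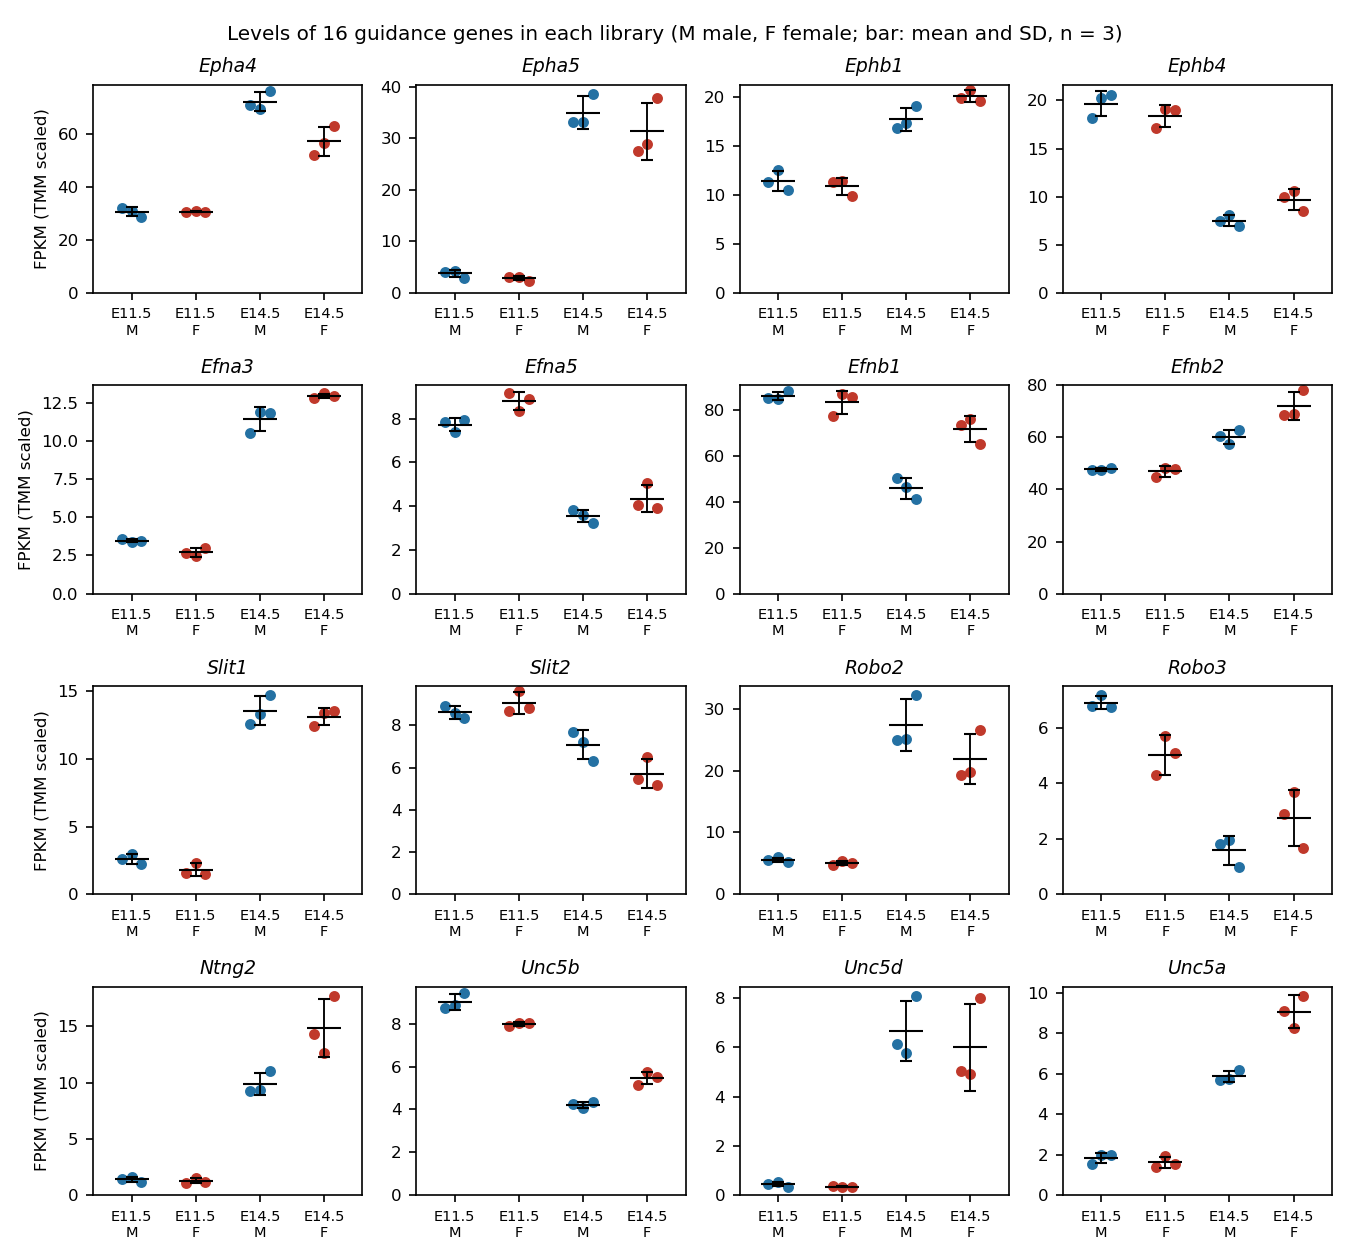
FPKM (TMM scaled, y axis) of 16 guidance genes in each of the 12 libraries, by age and sex (M male, blue; F female, red), with bars for the mean and SD of the 3 libraries in a group. In all 16 genes the ages separate, as for Unc5d (0.306 to 0.527 FPKM at E11.5, 4.92 to 8.07 FPKM at E14.5), and for Efnb1 the E14.5 males lie below the E14.5 females.

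The E14.5 litter of replicate 3 gave the highest values for 7 of the 17 genes that rose. For Epha5, Epha6, Slit1, Robo1, Robo2, Ntng1 and Unc5d both of its embryos were above the other 4 E14.5 libraries. For Unc5d they stood at 8.07 and 8.02 FPKM, against 4.92 to 6.14 FPKM in the other litter. The same held for Unc5c among the genes that fell. For Epha1 it held only by a margin too small to show, at 0.149 and 0.109 FPKM against 0.0602 to 0.109 FPKM. Robo3 was the called gene with both below the others, at 0.989 and 1.66 FPKM against 1.8 to 3.7 FPKM. How many of all genes separate the E14.5 litters in this way was not counted. The litter of replicate 3 also stood apart on the first principal component, so these counts cannot be read as particular to the members. Without that litter 17 members were still called higher and 12 lower, with Slit3 called lower (-0.50) and Efnb1 not. Without the other litter the counts were 18 and 13, Efnb2 being added (0.56) with Slit2 (-0.62) and Ntn1 (-0.61), and Unc5c lost.

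The members' transcripts were long and GC-rich, with medians of 4.84 kb and 55.4% GC against 3.21 kb and 50.4% for all genes tested, and the size of the changes depended on whether this was allowed for. A per-library correction for transcript GC content and length moved the log2 changes of all genes by a median of -0.12 and those of the members by -0.33, and 36 of the 40 members came out lower than before, as did 71.1% of all genes. After it 14 members were called higher, all among the 17 (20.1% of all genes), and 17 lower (24.7% of all genes), the original 12 with Ephb2 (-0.83), Slit2 (-0.96), Slit3 (-0.60), Ntn1 (-0.88) and Ntn3 (-0.66). Efnb3 (0.43), Dcc (0.37) and Neo1 (0.32) were no longer called, and Epha3 changed sign (-0.05). Members with large changes kept their calls, with Unc5d 3.58, Ntng2 3.12, Epha5 2.96 and Slit1 2.18 higher, and Robo3 -1.89, Ephb4 -1.52 and Efna5 -1.32 lower. Over the 30 alternatives tried for the age comparison, no called member changed direction, and 12 kept a call of higher in every one (Epha4, Epha5, Epha8, Ephb1, Ephb6, Efna3, Slit1, Robo1, Robo2, Ntng2, Unc5a and Unc5d) and 7 a call of lower (Epha2, Ephb3, Ephb4, Efna1, Efna5, Robo3 and Unc5b).

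Other genes of the same pathways were read from lists of partners and effectors. Of 16 extracellular partners, 8 rose, 1 fell and 7 were not called, beside the 24.4% higher and 19.0% lower of all genes, with a median log2 change of 0.66. The rises included Nell2, a secreted ligand of Robo3, from 26.3 to 29.9 FPKM to 47.6 to 60.3 FPKM (0.93, SE 0.03, adjusted p = 5.24e-12), in contrast to Robo3 itself. Draxin, a secreted ligand of Dcc, went from 6.09 to 7.89 FPKM to 30.5 to 45.2 FPKM (2.42, SE 0.08, adjusted p = 6.23e-11). Dscam, an adhesion molecule that also binds netrin, rose by 3.11 and the heparan sulphate proteoglycan Sdc3 by 1.44, while Lrig3 fell by 1.56 on the log2 scale. Of 40 intracellular effectors, 13 rose, 4 fell and 23 were not called, with a median of 0.32, so that the share that rose was not far above that of all genes and the share that fell was below it. They included Chn2, a Rac-inactivating chimaerin (1.29), the kinases Fyn (0.84) and Pak1 (0.71) and the actin regulator Evl (0.59) among the rises, and the phosphatase Ptpn13 (-1.07), the Rac activator Dock1 (-0.61), the adaptor Nck1 (-0.55) and the GTPase Rhoa (-0.51) among the falls. After the GC content and length correction, 8 partners rose and 3 fell, and 8 effectors rose and 7 fell.

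The age change was also taken within each sex. Of the 40 members, 16 rose and 14 fell in males, against 24.7% and 20.4% of all genes (45.0% either way), and 18 rose and 9 fell in females, against 25.0% and 19.6% (44.6% either way). The 23 called in both sexes went the same way in each (16 higher, 7 lower), and 37 of 40 had the same sign. Across the 40 genes the changes in males and in females, which share no library, had a Pearson correlation of 0.965, given as a description since genes measured in the same libraries and litters are not independent. In 1 sex alone 11 members were called (7 in males, 4 in females), against 25.7% of all genes, which is no test of a difference between the sexes. Efnb2 (0.62) and Efnb3 (0.82) were called higher and Slit2 (-0.66) and Unc5c (-0.83) lower in females, and Efna1 (-0.85), Efna2 (-0.86), Efna4 (-0.62), Efnb1 (-0.91), Ephb3 (-0.92), Ntn1 (-0.67) and Ntn3 (-0.68) were called lower in males. Of these 11, Unc5c did not pass the test of the difference itself (-0.53, adjusted p = 0.0601).

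The difference in age change between the sexes was tested in its own right. It passed an adjusted p of 0.05 (no fold minimum) in 23 members, against 39.1% of all genes. In 19 the value in females was above that in males, against 20.6% of all genes, and in 4 below, against 18.5%. The largest was that of Robo3, which fell by 2.12 in males and by 0.86 in females (difference 1.27, SE 0.38, adjusted p = 0.0228). Unc5a rose by 1.68 in males and 2.48 in females (difference 0.81, SE 0.17, adjusted p = 0.00161), and Efnb1 changed by -0.91 and -0.22 (0.69, SE 0.10, adjusted p = 0.000139). On the other side Epha7 changed by 0.21 in males and -0.22 in females (-0.42, SE 0.14, adjusted p = 0.0328), and Epha4 rose by 1.24 and 0.90 (-0.34, SE 0.09, adjusted p = 0.00938). The Epha7 difference did not pass in several fits with 1 library left out. Its adjusted p was 0.0586 without E11.5 male replicate 3 and 0.0797 without E14.5 female replicate 1. The differences were larger in members of high GC content: over the 40 members the correlation of the difference with transcript GC content was 0.785 (a description over genes of the same libraries). With the GC content and length correction, which removes such a relation by its construction, 4 members passed, against 11.1% of all genes, namely Epha5 (0.71, adjusted p = 0.031), Efna2 (0.28, adjusted p = 0.0295), Efnb2 (0.28, adjusted p = 0.0151) and Ntn3 (0.59, adjusted p = 0.0218), of which the last 3 were among the 23.

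**Figure D4:**
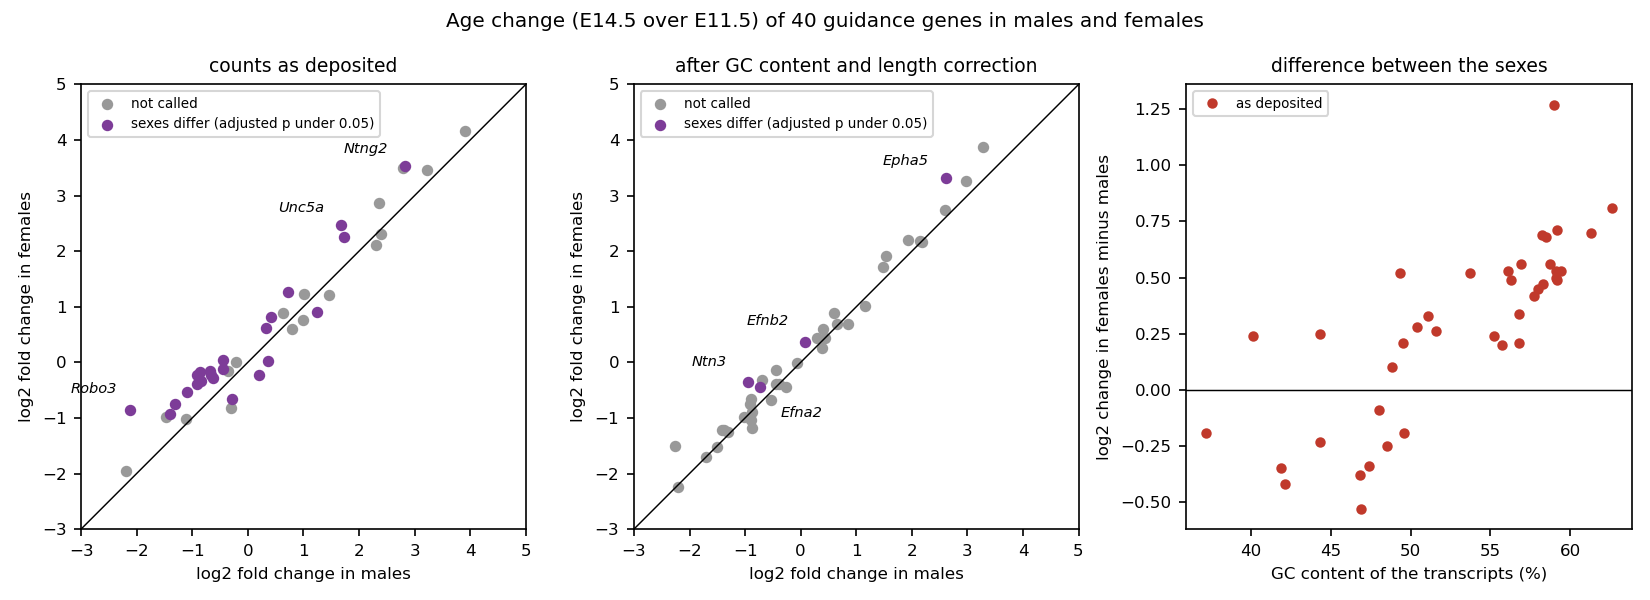
Left and middle, log2 age change of 40 guidance genes in females (y axis) against males (x axis) for the counts as deposited and after GC content and length correction, with purple points where the sexes differed and the diagonal as the line of equal change. Right, the difference between the sexes (log2, females minus males) against transcript GC content (percent): the points, for the counts as deposited, rise with GC content (correlation 0.785).

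Between the sexes at E11.5 no member was called by edgeR's quasi-likelihood test, against 0.374% of all genes (0.104% higher and 0.270% lower), although 10 had an unadjusted p under 0.05, as did 18.2% of all genes. DESeq2 called 1, Slit1, lower in females (-0.54, adjusted p = 0.00956). Its levels were 2.58, 2.99 and 2.23 FPKM in males and 1.60, 2.34 and 1.47 FPKM in females, so that they overlapped, and edgeR gave -0.53 (SE 0.16, adjusted p = 0.0977). Without E11.5 female replicate 2 edgeR called it too (-0.76, adjusted p = 0.0118).

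At E14.5, 6 members were higher in females and none lower, against 5.98% higher and 5.62% lower among all genes. Without the fold minimum, 18 members were higher and 7 lower, against 23.8% and 21.6% of all genes. The second principal component separated the E14.5 males (-60.9 to -69.6) from the E14.5 females (58.9 to 85). Markers of intermediate progenitors summed to 226 to 243 FPKM in E14.5 males and 275 to 296 FPKM in females, with 2 of 6 called higher in females. Those of the ventral telencephalon summed to 262 to 290 and 290 to 346 FPKM, with 2 of 12 called higher. Those of the endothelium summed to 78.1 to 94.7 and 72.9 to 84.6 FPKM, with 2 of 10 called lower. The lists of radial glia and of neurons each had 1 marker called higher in females. Those of mesenchyme and pericytes, of microglia and macrophages and of the eye each had 1 called lower. The part of these cell types in the sex differences was not tested. Efna2 was at 14.5, 14.8 and 14.3 FPKM in males and 22.6, 22.8 and 22.7 FPKM in females, the tightest separation of the 6 (0.64, SE 0.06, adjusted p = 9.94e-07). Efnb1, on the X chromosome, was at 50.1, 46.3 and 41.1 FPKM in males and 73.4, 76.1 and 65.3 FPKM in females (0.64, SE 0.07, adjusted p = 9.01e-06). Unc5a (5.68, 5.76 and 6.19 FPKM in males, 9.09, 8.25 and 9.88 FPKM in females) differed by 0.62 (SE 0.10, adjusted p = 0.000206). In these 3 genes every female library was above every male library. The same held for Ntng2, at 9.29, 9.36 and 11 FPKM in males and 14.3, 12.6 and 17.7 FPKM in females (0.58, SE 0.13, adjusted p = 0.0018), and for Epha8, at 0.867, 0.941 and 1.32 FPKM and 1.60, 1.36 and 1.82 FPKM (0.60, SE 0.22, adjusted p = 0.0341). Robo3 overlapped between the sexes, at 1.80, 1.97 and 0.989 FPKM in males and 2.89, 3.70 and 1.66 FPKM in females (0.81, SE 0.29, adjusted p = 0.0442). None of the 6 was called after the GC content and length correction (2.42% of all genes were called), which left Efna2 at 0.33 (adjusted p = 0.000777), Efnb1 at 0.30 (adjusted p = 0.0109), Unc5a at 0.22 (adjusted p = 0.0927), Ntng2 at 0.26 (adjusted p = 0.17), Epha8 at 0.21 (adjusted p = 0.515) and Robo3 at 0.45 (adjusted p = 0.335). The lowest GC content among these 6 transcripts was 58.2% (Efnb1). Members not called for sex also lay above that value: Epha10 (59.1%), Ephb3 (59.1%), Ephb4 (58.3%), Ephb6 (59.4%), Slit1 (59.2%) and Unc5b (58.7%). The part of base composition in the 6 calls was not tested.

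Efna2 (0.63 to 0.65), Efnb1 (0.57 to 0.71) and Unc5a (0.56 to 0.69) were called higher in females at E14.5 whichever of the 12 libraries was left out, whereas the other 3 calls were lost in some omissions. Robo3 fell short without any 1 of 8 libraries, with 0.53 to 0.90 and adjusted p of 0.0552 to 0.167 in those omissions. Epha8 fell short without E14.5 male replicate 1 (0.49), male replicate 2 (0.53), female replicate 1 (0.60) or female replicate 3 (0.50), and Ntng2 without E14.5 female replicate 3 (0.44). Without that same female library 3 members were called lower in females, Epha6 (-0.94), Epha7 (-0.54) and Unc5c (-0.65), and without E14.5 male replicate 1 Epha7 was (-0.51). Ephb3 was called higher in females without E14.5 male replicate 1 (0.50, adjusted p = 0.016), male replicate 2 (0.54, adjusted p = 0.00895) or female replicate 3 (0.58, adjusted p = 0.000405). Taking the replicate number as a block called Epha6 lower in females (-0.60, adjusted p = 0.0322), beside levels of 0.539, 0.597 and 0.844 FPKM in males and 0.328, 0.363 and 0.633 FPKM in females.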

How the data were processed

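Poly(A) RNA of each telencephalon was sequenced as stranded paired-end libraries. According to the submitters' processing notes and the methods, the authors aligned the reads with STAR 2.6.0c to GRCm38 (mm10) and assigned them to genes with Genedata software. How reads shared by several genes were divided, and whether strand was used in counting, is not given in the sources used here. The deposited estimated counts are not normalized. Of all counts 82.7% were exactly whole, and all were rounded here before the tests. The deposited FPKM values, made by the authors from the same counts, served only for the principal components and the limma alternatives. The components were taken over the genes tested, from log2 of the value plus 1 with each gene scaled. The limma alternatives used log2 of the value plus 0.1 or 1. Printed FPKM values were recomputed from the counts with TMM factors and the deposited transcript length. Depth was 17551763 to 28355361 counts. Counting error weighs most on the members with few counts, and its size beside the spread between embryos was not measured.

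The 12 libraries were fitted together as 4 groups (age by sex). The software was edgeR 4.0.16 under R 4.3.3, TMM factors set the scaling, and contrasts used the quasi-likelihood test in its robust form. Genes entered when any group's mean count reached 16, which left 14454, and the Benjamini-Hochberg adjustment ran over these. The call (adjusted p under 0.05, log2 fold change beyond 0.5) follows the criteria of the study. Scripts were tested on simulated data. Alternatives were DESeq2 1.42.0, DESeq2 size factors, upper quartile normalization, limma 3.58.1, other count minimums, no fold minimum, leaving out each library or litter, counts summed per mother, the mother as a random effect (correlation 0.388), and a loess correction of each library for GC content (known for 98.9% of genes, from GENCODE M21) and transcript length.

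The labels' replicate numbers mark shared mothers within an age but not across ages. Deviations of same-numbered males and females correlated at 0.067, 0.132 and 0.225 in the younger embryos and 0.214, 0.271 and 0.560 in the older. Among the older, replicates 1 and 2 share a mother, and its males and females of unlike number correlated at 0.268 and 0.168. The number therefore marks no pair among them. A fit with the number as a block was kept as an alternative, although it also joins embryos of different mothers across the ages. Mothers were taken from the study's table of embryos, which lists 3 at E11.5 where its text gives 2 litters. Embryos of a mother are not fully independent, and p values over embryos may be too small.

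The symbol rule for the members reads no measured value, but the gene families it covers, like the marker and pathway lists, were chosen with earlier results of these data known. Within each class the called members whose ages did not overlap, up to the 4 with the largest change, were to be given by lowest, median and highest library; uncalled members by value and adjusted p; members called for sex or for the difference between the sexes by name; and of the pathway lists the 4 smallest adjusted p in each direction. The text departs from this in places. No median is printed for Epha1, Epha6, Epha8, Ephb3, Efna1, Efna2 and Ntng1, and Epha4, outside the 4 largest changes of its class, has one. Outlying libraries were not tested for, since groups hold 3 samples.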

Additional observations from a re-analysis of the deposited data

Results flagged for a closer look

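In 23 of the 40 members the age change differed between males and females by the interaction test (edgeR's quasi-likelihood test, adjusted p under 0.05), against 39.1% of all genes. Among all genes 20.6% passed with the female change above the male and 18.5% with it below. The value given is the log2 age change in females minus that in males. It was above 0 for 19 members: Epha2 (0.56), Ephb2 (0.49), Ephb3 (0.53), Ephb4 (0.47), Ephb6 (0.53), Efna1 (0.52), Efna2 (0.68), Efna3 (0.53), Efna4 (0.34), Efnb1 (0.69), Efnb2 (0.28), Efnb3 (0.42), Robo3 (1.27), Ntn1 (0.45), Ntn3 (0.52), Ntn4 (0.33), Ntng2 (0.71), Unc5a (0.81) and Unc5b (0.56). It was below 0 for 4 members: Epha3 (-0.35), Epha4 (-0.34), Epha7 (-0.42) and Slit2 (-0.38). With the GC content and length correction 4 members passed, 3 of them among these 23, against 11.1% of all genes. The part of base composition in the others of the 23 was not tested further.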

How the results depend on the processing

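Of the age comparison's 40 members, 20 kept their call in all 30 alternatives, and the counts stayed at 17 higher and 12 to 13 lower when single libraries were left out. With counts summed per mother 18 were higher, Efnb2 (0.52) being added, and 12 lower, with Slit2 (-0.51) in place of Efna2 (-0.46). Changes of sign were near 0 or in members not called: Epha7 (0.00 with DESeq2 size factors, the DESeq2 Wald test and a mean count of at least 50, -0.08 to 0.03 without single libraries, 0.01 without the E11.5 litter of replicate 1, 0.21 without the E14.5 litter of replicates 1 and 2, -0.13 without that of replicate 3, 0.05 summed per mother, 0.02 with the mother as a random effect), Epha3 (-0.05 with the GC content and length correction, with or without the block) and Slit3 (0.13 without the E14.5 litter of replicates 1 and 2). For the difference between the sexes the correction gave Epha3 0.06, Ephb4 -0.00, Efnb3 -0.00 and Ntn1 -0.02 (-0.03 with the block).

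Counts moved with the correction, without and with the block: in females 14 and 14 members lower in place of 9, at E14.5 0 and 0 higher in females in place of 6, and for the difference between the sexes 4 and 5 above 0 in place of 19 and 0 and 0 below in place of 4. With no fold minimum 15 fell in females, and 18 were higher and 7 lower in females at E14.5; limma on log2(FPKM + 1) gave 5 lower in females, and 1 below 0 for the difference with either pseudocount. DESeq2 called 1 member lower in females at E11.5. Leaving out single libraries gave 0 to 1 lower at E11.5, 4 to 6 higher and 0 to 3 lower at E14.5, and 15 to 19 above and 1 to 7 below 0 for the difference (1 without E14.5 female replicate 1, 7 without E14.5 female replicate 3). The replicate number as a block gave 17 higher and 12 lower for age, 1 lower at E14.5, and 19 and 5 for the difference. The cause of these shifts was not tested. Of the standard errors given for the age comparison, those of members with few counts (Epha1, Epha6, Epha8, Epha10) were the largest. Between the sexes at E14.5, the standard error of Robo3, which has more counts, was larger than that of Epha8.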

Other observations

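Several members lie near each other in the genome (GRCm38) with unlike age changes. On chromosome 3, Efna3 (1.99) lies 10.5 kb from Efna4 (-0.45) and 34.0 kb from Efna1 (-0.59). On chromosome 4, Epha8 (3.15) lies 93.4 kb from Ephb2 (-0.20), and on chromosome 9, Robo3 (-1.49) lies 2.0 kb from Robo4 (-0.10). Robo1 (1.13) and Robo2 (2.21), 846.2 kb apart on chromosome 16, both rose.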
